A study of Mus musculus with 4 samples.

Results

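The actin cytoskeleton genes described here are Actb, Actg1, Pfn1, Cfl1, Tmsb4x, Tmsb10, Coro1a, Arpc2, Arpc1b and Was, abundant actin and actin-binding genes of T cells. They were chosen by name, and the Ensembl IDs of all 10 were found among the 38282 genes of both deposited expression tables. RNA came from CD4+ T cells of C57BL/6 mouse spleen, isolated as naïve cells, cultured under the Th0 condition (activation without lineage-steering cytokines) and harvested on day 4. The control group, Th0, had no dopamine and the other group, Th0+Dopa, received dopamine, at a dose that the labels leave unstated. Each group holds 2 libraries, numbered 2 and 3, and nothing in the labels says that they came from separate animals or cultures, so the p-values describe the spread among these libraries alone, and that spread may be technical. What limits the model is that the cells are cultured and that the RNA is bulk.

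Actin is stored in cells as monomers and polymerises into filaments that give a T cell its shape, its motility and the contact zone it forms with an antigen-presenting cell. Profilin (Pfn1) loads monomers for growth at filament ends, thymosins beta-4 and beta-10 (Tmsb4x and Tmsb10) hold monomers in reserve, and cofilin (Cfl1) severs old filaments. The Arp2/3 complex, of which Arpc2 and Arpc1b are subunits, starts new branches when it is switched on by the Wiskott-Aldrich syndrome protein (Was), and coronin-1A (Coro1a) binds filaments in blood cells.

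Expression is given as FPKM, in its plain form a fragment count divided by transcript length and by the mapped fragments of the library. Levels of different genes can thus be compared per length. No source used here says whether the deposited values were also scaled between libraries. The libraries numbered 2 stand in one table and those numbered 3 in the other. Summed FPKM ran from 687066 to 880583 per library, with both sums higher in Th0+Dopa. Mitochondrial genes took 5.64% and 8.41% of it in Th0 and 1.55% and 3.35% in Th0+Dopa, and small RNA genes 18.3% and 16.5% against 26.0% and 20.6%. Read counts were not used here. The steps between low values put 1 fragment on a 1 kb transcript at 0.155 to 0.206 FPKM. This places about 16000 to 25000 fragments behind each Actb value and about 320 to 520 behind each Was value. These figures take the mean length of a gene's annotated transcripts (876.4 bases for Actb and 1410 for Was). A longer transcript, such as the 1920 bases of the principal Actb form, would mean more fragments. In bulk RNA, fewer cells of a type and less RNA per cell cannot be told apart.

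The thymosin pair is shown as coding sequence because the log2 differences of its genes had opposite signs (0.59 and -0.26), neither of which passed the test. The sequences are the reverse-strand coding exons of GENCODE M21 on GRCm38, at chrX:167207501-167208036 for Tmsb4x and chr6:72957618-72958012 for Tmsb10, introns left out and the stop codon included. Capitals mark the bases at which the sequences differ when laid side by side without gaps.
Tmsb4x: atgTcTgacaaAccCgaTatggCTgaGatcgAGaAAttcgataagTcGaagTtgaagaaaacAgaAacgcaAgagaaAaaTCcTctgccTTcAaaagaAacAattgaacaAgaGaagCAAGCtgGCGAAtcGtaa
Tmsb10: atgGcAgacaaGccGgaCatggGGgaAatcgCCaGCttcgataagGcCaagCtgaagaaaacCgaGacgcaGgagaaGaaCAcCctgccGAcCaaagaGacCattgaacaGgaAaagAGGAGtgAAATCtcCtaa
Both hold 44 codons before the stop. They differ at 40 of 135 bases, an identity of 70.4%, and share no identical run longer than 10 bases.

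The actin pair is far closer. Over 1128 coding bases Actb and Actg1 were 88.7% identical, with a longest identical run of 62 bases, so fragments from some stretches could come from either gene and the split between them is less certain. Their first 60 coding bases, which hold the short stretch that tells the beta and gamma proteins apart, lie on the reverse strand at chr5:142905627-142905686 (Actb) and chr11:120348032-120348091 (Actg1), and capitals again mark differing bases.
Actb: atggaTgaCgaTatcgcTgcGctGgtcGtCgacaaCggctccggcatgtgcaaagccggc
Actg1: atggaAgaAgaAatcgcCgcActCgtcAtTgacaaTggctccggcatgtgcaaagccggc

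The members lay among the more abundant nuclear protein-coding genes, with ranks from 2 to 1916 over the 4 libraries. Actb, the beta-actin gene, was the highest in every library, at 4412 and 3802 FPKM in Th0 (libraries 2 and 3) and 4389 and 4338 FPKM in Th0+Dopa, which ranked it 2 to 7 among nuclear protein-coding genes. Tmsb4x followed in each library and ranked 9 to 18. Tmsb10, Pfn1, Cfl1 and Actg1 lay between 579.8 and 1104 FPKM, with ranks from 66 to 146. Coro1a, Arpc2 and Arpc1b lay between 157.2 and 497.3 FPKM. Was, a switch protein rather than a building block, was the lowest at 46.69 to 58.64 FPKM and ranked 1569 to 1916. In this order the 4 values of a gene lay wholly above those of the next for Tmsb4x over Tmsb10, Pfn1 over Cfl1, Actg1 over Coro1a and Arpc1b over Was, and the other neighbours overlapped. Together the 10 genes took 1.58% and 1.45% of summed FPKM in Th0 and 1.42% and 1.49% in Th0+Dopa, ranges that overlap.

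**Figure D1:**
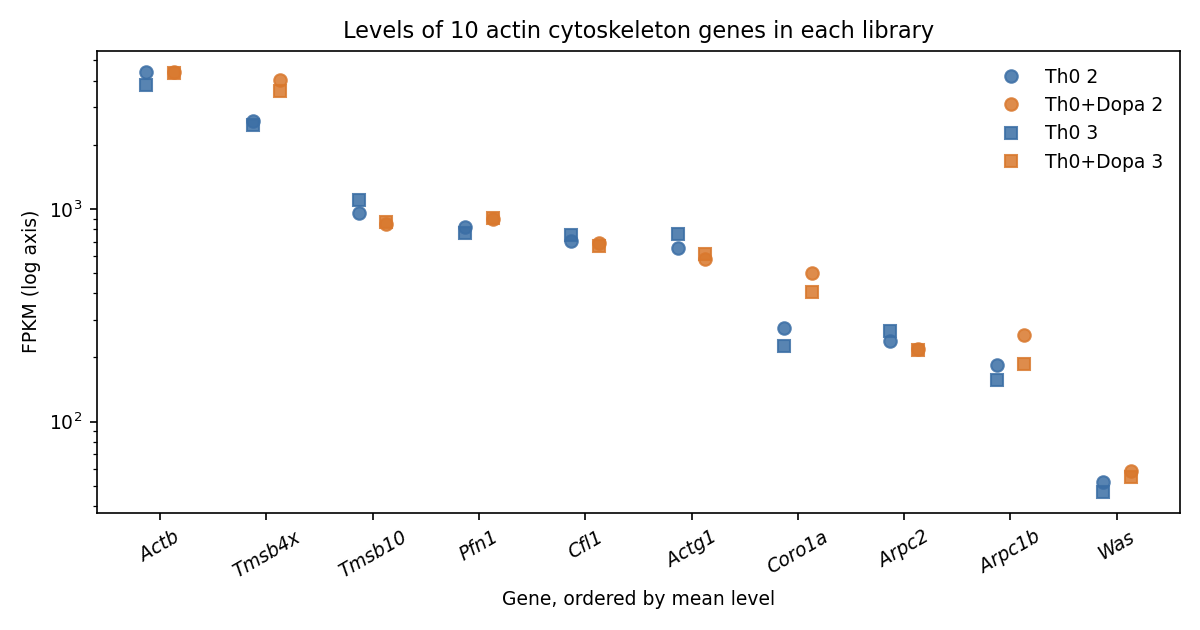
FPKM on a log axis for each of the 10 genes, ordered by mean level, with 1 point per library (blue, Th0; orange, Th0+Dopa; circles, libraries numbered 2; squares, libraries numbered 3). The orange points lie clearly above the blue ones for Tmsb4x (3589 and 4055 against 2482 and 2577 FPKM) and Coro1a, while Actb overlaps.

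Dopamine went with no common shift of these genes: Coro1a rose, and the other 9 did not pass the test. In the limma model over 11423 tested genes (mean FPKM of at least 1, table as block, Benjamini-Hochberg adjusted p under 0.05), 1 of 10 members was called, beside 10.7% of all tested genes. That 1 call was a rise, beside 6.28% of genes called higher. Members called lower numbered 0, beside 4.39% of all genes, and 0 members were lower at an unadjusted p under 0.05, beside 12.2%. At that unadjusted p 3 members were higher (Coro1a, Tmsb4x and Arpc1b), beside 15.7% of all genes higher and 27.8% in either direction. The median log2 difference of the members was 0.13, against 0.03 for all tested genes. For 9 members all Th0+Dopa values lay on one side of all Th0 values, 5 higher (Coro1a, Tmsb4x, Arpc1b, Was, Pfn1) and 4 lower (Tmsb10, Actg1, Arpc2, Cfl1), a separation shown by 57.0% of tested genes (31.4% higher and 25.6% lower). These counts set levels side by side across separate tables, whereas the model compared within each table. The same 9 had the same sign in both tables, as did 69.9% of tested genes. Of the 9, the higher signs of Was and Pfn1 turned when every library was scaled to a common FPKM sum (-0.05 and -0.08), a scaling that moved the median of all genes to -0.20, and Pfn1 also turned after a correction for GC content and length (-0.08).

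**Figure D2:**
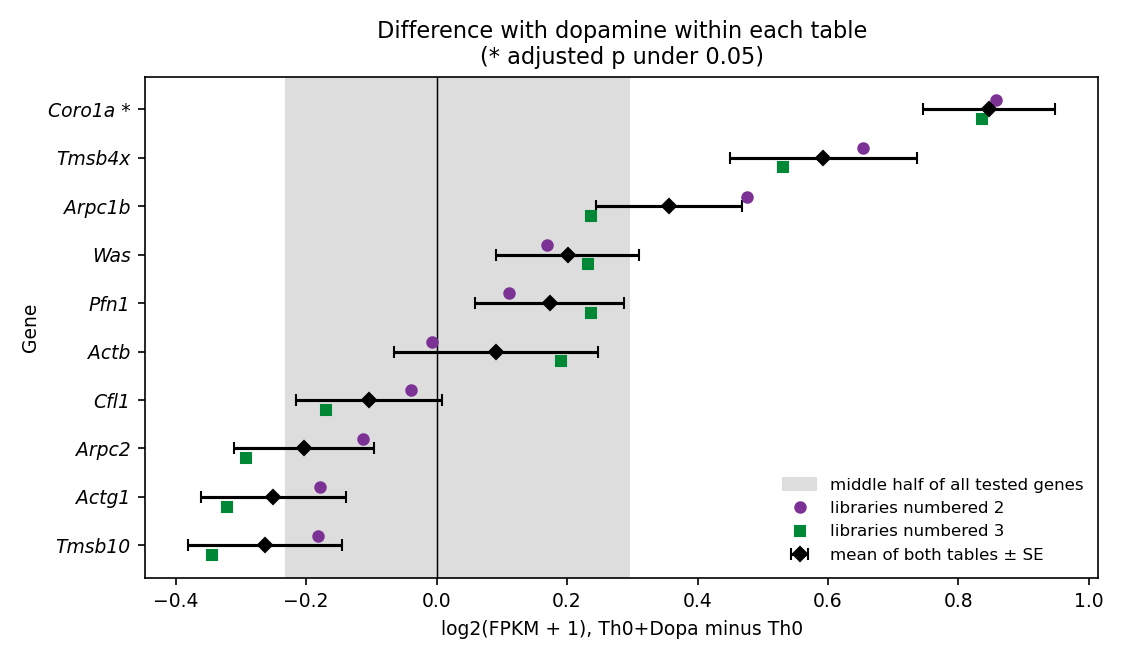
Difference in log2(FPKM + 1), Th0+Dopa minus Th0, for each gene: circles and squares are the libraries numbered 2 and 3, diamonds their mean. Bars are limma's standard error, which draws on all tested genes and not on the 2 plotted differences alone. The grey band runs from the lower to the upper quartile of all tested genes (-0.23 to 0.29). The means of Coro1a (starred, adjusted p under 0.05), Tmsb4x and Arpc1b lie to the right of the band, and those of Actg1 and Tmsb10 (-0.25 and -0.26) just to its left.

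Markers of macrophages and dendritic cells, of granulocytes and mast cells, and 2 platelet genes were lower with dopamine. Of the B cell markers only 1 of 8 passed the filter, and of the CD8 T and NK cell markers 1 of 7, with 0 called. Myeloid cells also make actin, gelsolin, talin and the myosins named here. Of 15 tested macrophage and dendritic cell markers 13 fell, and their summed level was 588 and 785 FPKM in Th0 and 98.3 and 92.4 FPKM in Th0+Dopa. The highest were Mmp12 and Ctss, at 204.1 and 271.4 FPKM and 101.7 and 138.3 FPKM in Th0. Granulocyte and mast cell markers summed to 451 and 600 FPKM against 50.8 and 47.0 FPKM, with 8 of 9 tested called lower, Mcpt8 and Prss34 the highest, and Elane, Camp, Ltf and Ngp listed at 0 in at least 1 library. The platelet genes Pf4 and Itga2b, the 2 tested of 7 erythroid and platelet markers, fell as well. The erythroid genes Hba-a1, Hbb-bs and Alas2 were listed at 0 in at least 1 library. T cell identity genes, all 16 of them above 1 FPKM on average, summed to 2800 and 2760 FPKM in Th0 and 3040 and 2810 FPKM in Th0+Dopa with a median difference of 0.25. Of them Cd5 (0.96), Cd6 (0.84), Cd3d (0.48) and Zap70 (0.46) rose. Trac and Trbc2 had the highest levels, and Trac alone fell, from 450.3 and 526.5 FPKM to 273.7 and 325.4 FPKM. B cell markers summed to 2.65 to 5.42 FPKM (Ms4a1, Pax5, Ebf1 and Blk listed at 0 in at least 1 library), CD8 T and NK cell markers to 4.8 to 7.24 FPKM (Ncr1, Klrb1c, Klrk1 and Klra1 likewise), and fibroblast and endothelial markers to 20.6 to 27.2 FPKM, nearly all of it Pecam1, with Col1a1, Col1a2, Col3a1, Pdgfra and Cdh5 listed at 0 in at least 1. The part of these cells in the differences of the actin genes was not tested.

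Coro1a (ENSMUSG00000030707, chr7:126699773-126707787, GRCm38), which encodes a coronin that T cells need for survival and migration, was the member that rose. Its level was 274.1 and 226.2 FPKM in Th0 and 497.3 and 404.6 FPKM in Th0+Dopa. Both dopamine libraries stood well above both controls, and the rise was 1.81-fold between the libraries numbered 2 and 1.79-fold between those numbered 3. The mean log2 difference was 0.85 ± 0.10 (limma's SE, here and for the differences below, 2 libraries per group, limma adjusted p = 0.0085). Corrected for GC content and length, the difference was 0.54 (adjusted p = 0.023). The call was lost without limma's trend (adjusted p = 0.083), with no replicate block (0.0554) and in fits that left out a library, which had no block and used median-of-ratios scaling: 0.224 without Th0 2, 0.285 without Th0+Dopa 2, 0.438 without Th0 3 and 0.153 without Th0+Dopa 3. Coro1b, the related coronin fixed as its partner, was listed at 0 in all 4 libraries, so no ratio was formed. The gene Bola2 lies on the opposite strand and shares 26 bases with Coro1a at its 3′ end; it had 144.5 and 150.1 FPKM in Th0 and 205.4 and 160.5 FPKM in Th0+Dopa.

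The thymosins had differences of opposite sign, and neither passed the test. Tmsb4x (ENSMUSG00000049775), the main monomer-holding protein of blood cells, was at 2577 and 2482 FPKM in Th0 and at 4055 and 3589 FPKM in Th0+Dopa. Both dopamine libraries were higher, by 1.57-fold and 1.45-fold, and the groups did not overlap. The log2 difference of 0.59 ± 0.14 stood just outside the threshold (limma adjusted p = 0.0564), and was inside it with a pseudocount of 0.1 (0.0306), a filter at 5 FPKM (0.0429) and the GC and length correction (0.0153), as with both sum scalings (0.0221 and 0.0151). It was farther outside with no filter (0.218), without the trend (0.135), with no replicate block (0.114) and when 1 library was left out (0.176 to 0.644). Tmsb10 (ENSMUSG00000079523) had 960.5 and 1104 FPKM in Th0 and 846.7 and 870.0 FPKM in Th0+Dopa. Its values were lower with dopamine in both tables, but the difference of -0.26 ± 0.12 did not pass (adjusted p = 0.214); corrected for GC content and length it was -0.64 (adjusted p = 0.0118). Within a library the ratio of the pair does not depend on how the library was scaled. Tmsb4x stood at 2.68 and 2.25 times Tmsb10 in Th0 and at 4.79 and 4.12 times in Th0+Dopa. The log2 ratio thus went from 1.30 ± 0.18 to 2.15 ± 0.15 (SD, n = 2), a change of 0.84 for the libraries numbered 2 and 0.88 for those numbered 3, and of 1.24 after the GC and length correction, an alternative for ratios added after the data were seen. Ratios were not tested: 2 against 2 libraries cannot give an exact two-sided permutation p below 0.333.

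The cytoplasmic actins differed less between the groups. Actb (ENSMUSG00000029580, chr5:142903115-142906754) had nearly equal values in the libraries numbered 2 (4412 FPKM in Th0 and 4389 in Th0+Dopa) and a higher value with dopamine in those numbered 3 (3802 and 4338 FPKM). The groups overlapped, and the log2 difference was 0.09 ± 0.16 (limma adjusted p = 0.752), with a negative sign under common-sum scaling (-0.16), under scaling to protein-coding FPKM (-0.06), after the GC and length correction (-0.06) and without Th0 3 (-0.05). Actg1 (ENSMUSG00000062825, chr11:120345690-120348542), the gamma form, had 656.3 and 765.0 FPKM in Th0 and 579.8 and 611.9 FPKM in Th0+Dopa. Both dopamine values were below both controls, yet the difference of -0.25 ± 0.11 did not pass (adjusted p = 0.212). It passed once corrected for GC content and length (-0.42, adjusted p = 0.0354). The ratio of Actb to Actg1 was 6.72 and 4.97 in Th0 and 7.57 and 7.09 in Th0+Dopa, a log2 change of 0.17 for the libraries numbered 2 and 0.51 for those numbered 3. The groups did not overlap, but Th0 2 lay nearer to both Th0+Dopa libraries than to Th0 3.

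Profilin and cofilin, which feed and dismantle filaments, had small differences. Pfn1 (ENSMUSG00000018293) was at 825.6 and 769.0 FPKM in Th0 and 891.6 and 906.3 FPKM in Th0+Dopa, a log2 difference of 0.17 ± 0.11 (limma adjusted p = 0.378). Cfl1 (ENSMUSG00000056201) was at 709.6 and 753.1 FPKM in Th0 and 691.0 and 669.9 FPKM in Th0+Dopa, a difference of -0.10 ± 0.11 (adjusted p = 0.597). The gap between the groups was smaller than 1 SE in Cfl1. Its relative Dstn, which encodes another depolymerising factor of the family, did change: 42.65 and 45.68 FPKM in Th0 against 21.46 and 24.81 FPKM in Th0+Dopa. Dstn fell by 0.91 on the log2 scale (SE 0.12, limma adjusted p = 0.0116), and the groups were well apart. Cfl1 accordingly stood at 16.6 and 16.5 times Dstn in Th0 and at 32.2 and 27.0 times in Th0+Dopa.

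Among Arp2/3 subunits the members pointed in different directions. Arpc1b (ENSMUSG00000029622), the subunit form used in blood cells, had 183.8 and 157.2 FPKM in Th0 and 256.1 and 185.4 FPKM in Th0+Dopa. The lower dopamine value barely exceeded the higher control, and the difference of 0.36 ± 0.11 did not pass (limma adjusted p = 0.107). It was 0.09 without Th0+Dopa 2, 0.10 with the common FPKM sum and 0.17 after the GC and length correction. Its alternative Arpc1a, at 20.63 and 19.88 FPKM in Th0 and 27.37 and 30.24 FPKM in Th0+Dopa, had 0.49 ± 0.13 (adjusted p = 0.0752). The ratio of Arpc1b to Arpc1a was 8.91 and 7.91 in Th0 and 9.35 and 6.13 in Th0+Dopa, with overlapping groups and opposite signs in the tables. Arpc2 (ENSMUSG00000006304), part of the core that holds the complex on the mother filament, had 237.9 and 267.2 FPKM in Th0 and 219.8 and 217.9 FPKM in Th0+Dopa, a difference of -0.20 ± 0.11 (adjusted p = 0.276). Pdap1, on the opposite strand, shares 1937 bases with Arpc1b and had 103.9 and 118.9 FPKM in Th0 and 82.87 and 89.85 FPKM in Th0+Dopa. No source used here says whether counting used strand.

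The other subunits of the complex differed little. Actr3 and Actr2, the actin-related core, had -0.02 ± 0.10 and -0.12 ± 0.15, with signs that turned after the GC and length correction and in some fits without a library. Arpc3 had -0.11 ± 0.10, Arpc4 0.06 ± 0.10, Arpc5 0.16 ± 0.12 and Arpc5l 0.11 ± 0.11; the last 3 turned negative under common-sum scaling. Actr3b lay under the filter, at no more than 0.0969 FPKM. Levels per length were uneven: the means over the 4 libraries were 260.2 FPKM for Actr3, 235.7 for Arpc2, 218.4 for Arpc3, 195.6 for Arpc1b, 172.0 for Arpc5, 135.3 for Arpc4, 112.5 for Actr2, 62.02 for Arpc5l and 24.53 for Arpc1a. Arpc5 stood at 2.64 to 2.87 times its alternative Arpc5l in all 4 libraries. Of 9 tested subunits 0 were called in limma, and 2 had an unadjusted p under 0.05, beside 27.8% of all tested genes.

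Was (ENSMUSG00000031165, chrX:8081453-8090498), the activator of the complex in blood cells, had 52.04 and 46.69 FPKM in Th0 and 58.64 and 55.03 FPKM in Th0+Dopa. Both dopamine values were higher, by 1.13-fold and 1.18-fold, and the difference of 0.20 ± 0.11 did not pass (limma adjusted p = 0.29). Its widely expressed relative Wasl was at 1.522 to 1.98 FPKM. Was thus stood at 32.5 and 30.7 times Wasl in Th0 and at 31.2 and 27.8 times in Th0+Dopa, ranges that overlap.

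**Figure D3:**
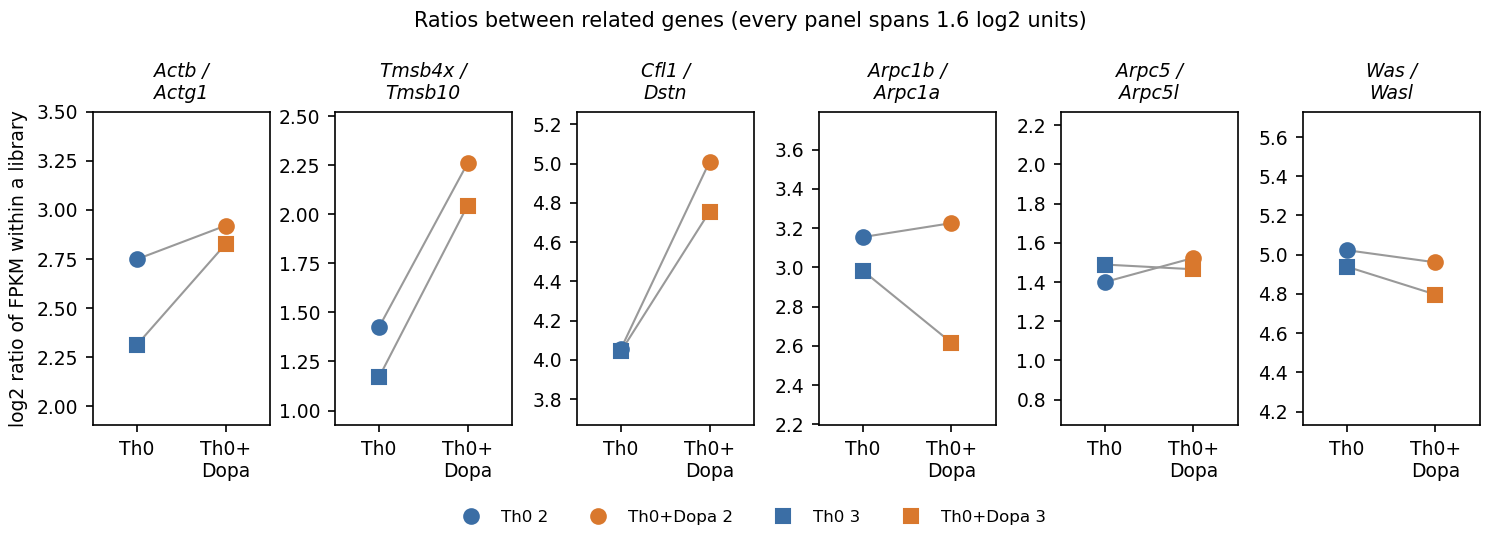
The log2 ratio of FPKM between 2 related genes within each library, in 1 panel per pair, with grey lines joining the libraries of a table; the axes start at different values but span equal lengths. Both lines climb steeply for Tmsb4x over Tmsb10 and for Cfl1 over Dstn, and cross or stay nearly flat for Arpc5 over Arpc5l and Was over Wasl.

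The wider actin machinery was read from 11 lists by role, which include the members: 142 of 177 listed genes were tested, 4 rose and 5 fell. That is 6.34% called, beside 10.7% of all tested genes, and the median difference was -0.07. Among severing and filament-turnover genes (18 tested, 2 higher and 1 lower, median 0.10), Gsn rose beside Coro1a while Dstn fell. Gsn encodes gelsolin, which cuts and caps filaments, and went from 17.01 and 16.71 FPKM to 67.31 and 54.39 FPKM, a difference of 1.78 ± 0.13 (limma adjusted p = 0.00197). Both dopamine libraries were more than 3 times the controls, and Gsn was also called without limma's trend (adjusted p = 0.0396).

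Myosin and tropomyosin genes (14 tested) held 1 rise and 2 falls, with a median of -0.29. The class II heavy chains, motors that contract actin, were lower: Myh9 fell from 110.4 and 105.5 FPKM to 57.17 and 71.1 FPKM (-0.75 ± 0.13, limma adjusted p = 0.0246; 0.0524 with no replicate block and 0.125 without the trend) and Myh10 from 5.89 and 9.931 FPKM to 1.819 and 1.956 FPKM (-1.59 ± 0.25, adjusted p = 0.0191). Myo1g, a membrane-linked myosin of blood cells, rose by 0.59 ± 0.12 (limma adjusted p = 0.038), and passed after the GC and length correction (0.0486). It did not pass under common-sum scaling (0.34, adjusted p = 0.204) or with the protein-coding sum (0.128). The call was also lost with no filter (0.055), without the trend (0.139) and with no replicate block (0.0962). Myl6, a myosin light chain and the highest of this list, had -0.05 ± 0.12.

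Genes that link the cortex to membranes and integrins (11 tested, median 0.01) held 1 rise and 2 falls. Talin-1 (Tln1), which couples integrins to actin, fell from 70.36 and 112.5 FPKM to 33.59 and 42.14 FPKM (-1.22 ± 0.13, limma adjusted p = 0.00615), a call lost with no replicate block (0.0621) and without the trend (0.0663). The adaptor Fyb fell from 27.64 and 28.61 FPKM to 8.407 and 13.37 FPKM (-1.32 ± 0.18, adjusted p = 0.0126). Fermt3, the integrin activator kindlin-3, rose from 74.74 and 67.2 FPKM to 120.1 and 98.0 FPKM (0.61 ± 0.11, adjusted p = 0.0263), and did not pass under common-sum scaling (0.36, adjusted p = 0.104) or after the GC and length correction (0.47, limma p adjusted to 0.0553). Ezr, which ties filaments to the membrane, had -0.30 ± 0.10 (adjusted p = 0.132).

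In 7 other lists limma called 0 genes. They were actin isoforms (2 tested, 0 at an unadjusted p under 0.05, median -0.08), monomer binding (7, 2 and 0.02), the Arp2/3 complex given above, nucleation promoting factors (20, 2 and 0.11), formins (7, 0 and -0.14), and capping, bundling and crosslinking (22, 6 and -0.16). The same held for the group of serum response factor and its partner factors (6, 0 and -0.01). The highest gene not called was Capzb, a capping protein, in the crosslinking list (-0.21 ± 0.10), Hcls1 among nucleation promoters (0.13 ± 0.10), Diaph3 among formins (-0.17 ± 0.16) and Elk4 in the last group (-0.12 ± 0.24). In each of the 4 fits that left out a library limma called 0 genes of the 11 lists, with 14 to 44 at an unadjusted p under 0.05, and over all genes those fits called 0 to 22.

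**Figure D4:**
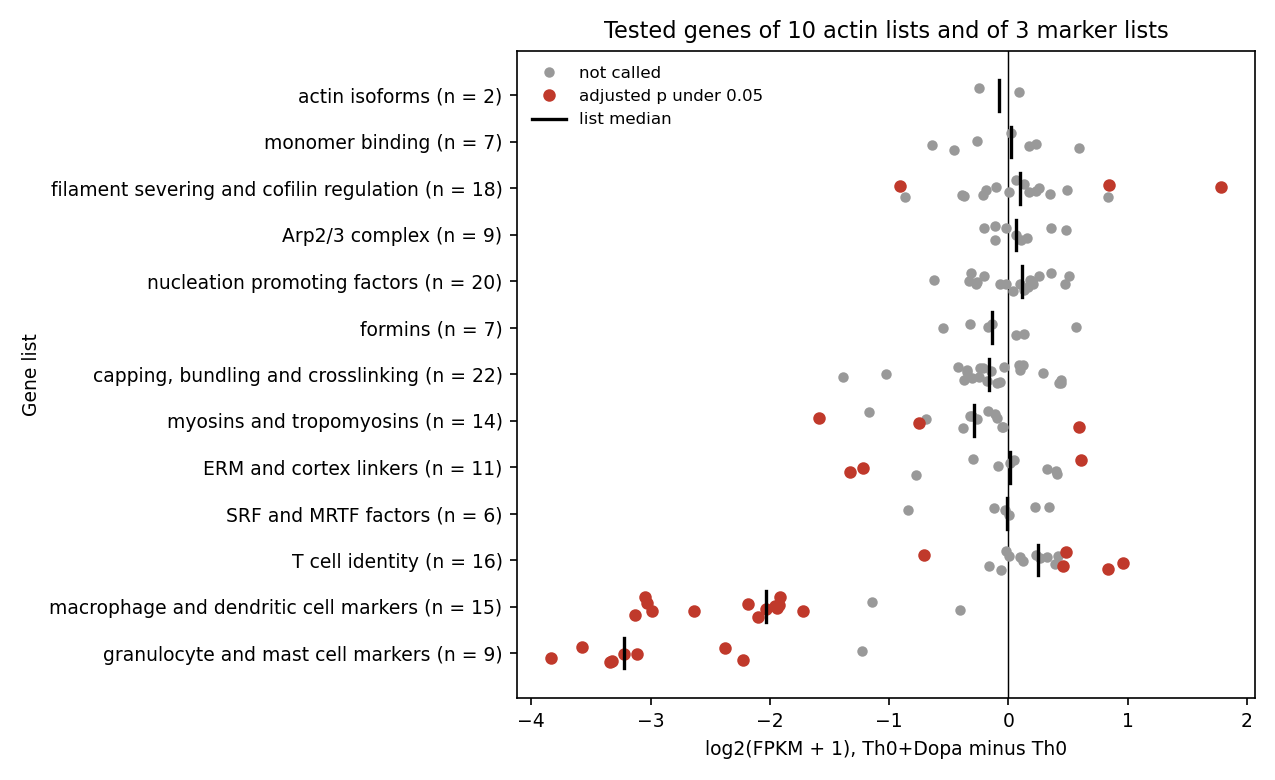
Log2 difference, Th0+Dopa minus Th0, of each tested gene in 10 of the actin lists and 3 marker lists; red points passed the adjusted p of 0.05, grey points did not, and black bars are list medians. Most actin genes sit near 0, and Gsn stands alone on the right at 1.78. Of the actin genes Myh10 lies farthest left (-1.59), and others such as Tln1 (-1.22) also lie well left. The macrophage and granulocyte marker lists lie far to the left (medians -2.04 and -3.22).

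Promoters of the members were read from RefSeq (GRCm38.p6), 250 bases before to 50 after the start, for 9 members, all but Actb. A CArG box, the site read by serum response factor, was present in 1 of 9, Actg1. The 9 members had 12 promoter windows, and 1 held it, against 1.63% of all 32851 promoters and 1.2% of those of tested protein-coding genes. The Actg1 promoter is shown because it holds this match, in capitals, beginning 90 bases before the start, on the reverse strand at chr11:120348446-120348745.
Actg1: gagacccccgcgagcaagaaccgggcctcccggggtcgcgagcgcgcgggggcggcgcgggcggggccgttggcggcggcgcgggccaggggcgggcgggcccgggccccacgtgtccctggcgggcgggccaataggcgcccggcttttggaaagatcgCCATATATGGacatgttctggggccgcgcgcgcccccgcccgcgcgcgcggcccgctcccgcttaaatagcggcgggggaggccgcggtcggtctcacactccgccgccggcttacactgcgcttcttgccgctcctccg
The letters GGGCGG, a core of Sp1 sites, stood on either strand in 8 of 9 members. They stood in 11 of the 12 windows, against 35.7% of all promoters and 63.5% of those of tested protein-coding genes. They also occur in the Actg1 sequence above, apart from the CArG box. TATAAA was found in 0 of 12 windows of the 9 members, against 13.6% of all promoters and 6.82% of those of tested protein-coding genes. These matches are letters, not shown binding sites.

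Reads can also be shared with pseudogene copies. By blastn, 16 annotated pseudogenes in the tables matched a member's transcript at 90% identity or more over at least 150 bases: 6 for Actg1, 6 for Cfl1, 2 for Was and 1 each for Actb and Arpc1b. Pfn1, Tmsb4x, Tmsb10, Coro1a and Arpc2 had 0 such copies. Copies took at most 1.74% of a member's own level in any library (Actg1, Th0+Dopa 2). Adding them back gave log2 differences of 0.09 for Actb, -0.24 for Actg1 and -0.10 for Cfl1, without a pseudocount.

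**Figure D5:**
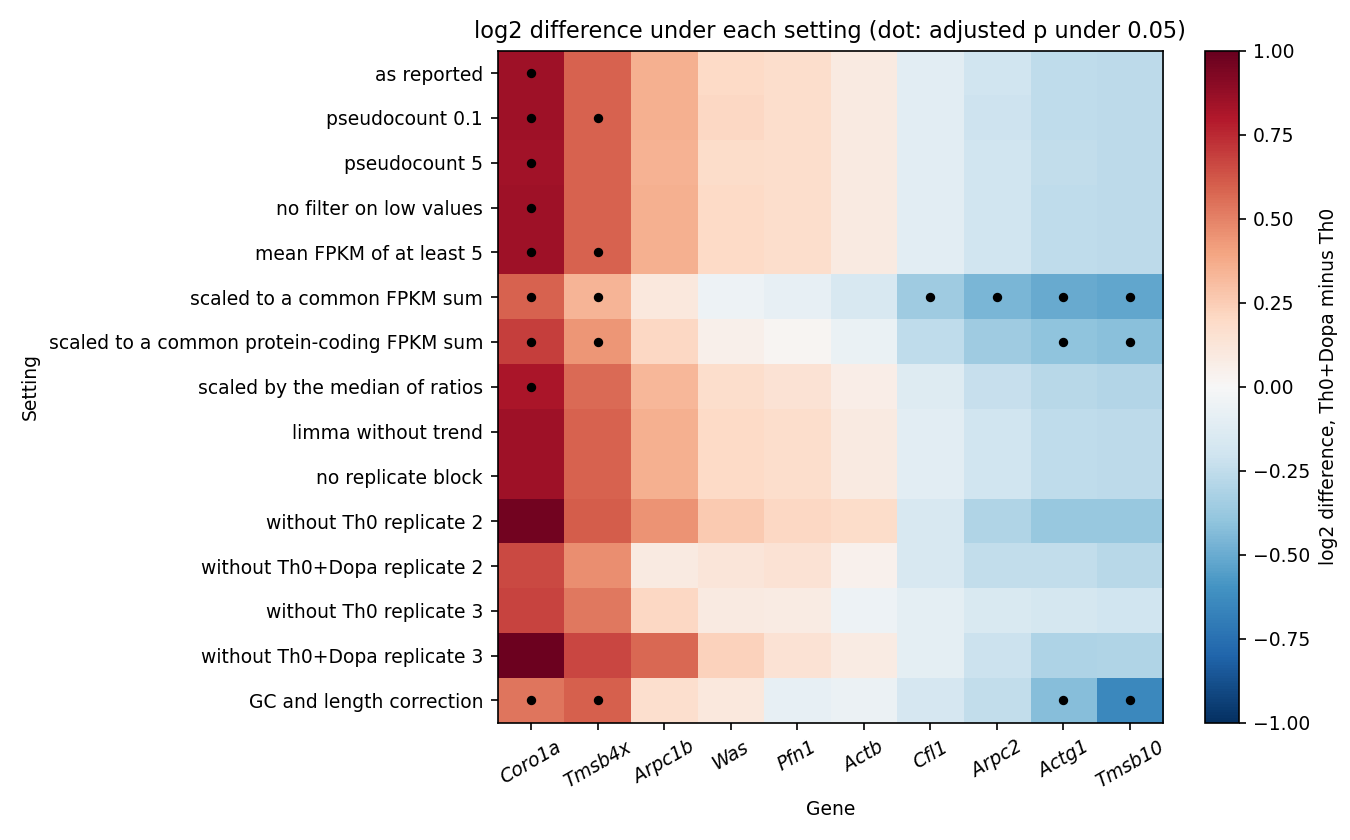
Log2 difference of each member (columns) under each setting (rows), red higher and blue lower with dopamine; dots mark an adjusted p under 0.05. Coro1a and Tmsb4x are red and Cfl1, Arpc2, Actg1 and Tmsb10 blue in every row drawn, while Actb, Pfn1 and Was change colour in some rows.

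How many members were called depended on the scaling. With each library scaled to a common FPKM sum, 6 of 10 were called, beside 12.6% of all tested genes: Coro1a (0.59) and Tmsb4x (0.34) higher, and Cfl1 (-0.36), Arpc2 (-0.46), Actg1 (-0.51) and Tmsb10 (-0.52) lower. That scaling moved the median of all tested genes from 0.03 to -0.20, so the members' median moved with it. Scaled to a common sum of protein-coding nuclear genes, 4 were called, beside 9.84% of all genes, Coro1a and Tmsb4x higher and Actg1 and Tmsb10 lower. Corrected for GC content and length, 4 were called beside 8.27% of the genes. A pseudocount of 0.1 and a filter at 5 FPKM each gave 2, beside 13.5% and 15.0%. The signs of 7 members (all but Actb, Pfn1 and Was) were the same in all 15 settings shown.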

How the data were processed

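RNA of 4 libraries (2 per group) was sequenced paired-end after ribosomal RNA depletion with a stranded kit, per the labels' protocols. The deposited values are FPKM; Cufflinks 2.2.1, STAR 2.4.2 and the mm10 build are named in the submitters' processing notes, beside Trimmomatic 0.35. No source used here gives the annotation release, the normalization options or the strand setting. GENCODE M21 (GRCm38) named 36423 of 38282 IDs. Genes averaging 1 FPKM or more over the libraries were tested with limma 3.58.1 (R 4.3.3, trend, two-sided) on log2(FPKM + 1), a scale that understates the change of low genes, with the table as block because the tables were made separately. This left 1 residual degree of freedom per gene and 4.7 from the prior. GC content and length, each the mean over a gene's annotated transcripts, were corrected by loess (span 0.3). For Coro1a that mean length was 854.3 bases, against 1747 in its principal transcript. Copies were sought with blastn 2.17.0. The fit was also run on simulated data with planted changes and no table effect. The only condition set there was that the estimates track the planted changes, so it does not vouch for the calls.

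Named genes were the 10 members, their partners in the ratios, the Arp2/3 subunits, up to 4 calls with the largest difference and the highest gene not called of each other list, and the 2 highest genes of each marker list. The members and lists were chosen with earlier results of these data known. The alternatives are listed in the closing section. Exact zeros are written as listed at 0, since they can be failed estimates. Antisense and overlapping genes are uncertain. The separate result of 1 actin list and of 1 marker gene is not reported here.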

Additional observations from a re-analysis of the deposited data

How the results depend on the processing

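Direction was kept by Coro1a, Tmsb4x, Arpc1b, Cfl1, Arpc2, Actg1 and Tmsb10 under all 14 alternatives. Actb turned with the common FPKM sum (-0.16), the protein-coding sum (-0.063), the GC and length correction (-0.061) and when 1 library was left out (-0.053 without Th0 3 to 0.18), Pfn1 with the common sum (-0.081) and the correction (-0.082), and Was with the common sum (-0.050). Over all genes 1218 were called; 740 with no filter, 256 without limma's trend and 496 with no replicate block. Without the trend 0 members and 1 gene of the actin lists, Gsn, were called. With no replicate block 0 members were called, 2 at an unadjusted p under 0.05, and 4 list genes (Gsn, Dstn, Fyb and Myh10); Coro1a then had 0.85, the same estimate, as it did without the trend. The same-numbered libraries' deviations correlated at 0.087 over genes, so the number was used for the table only. Leaving out 1 library gave 0 to 22 calls over all genes, 0 members and 0 list genes, with Coro1a at 0.66 to 0.98; a lone library was assumed to vary like the others.

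Members called were 2 with a pseudocount of 0.1 (1537 over all genes), 2 with a filter at 5 FPKM (1228), 6 with the common sum (1440), 4 with the protein-coding sum (1124) and 4 with the GC and length correction (933); list genes were 14 with a pseudocount of 0.1 and 26 with the common sum (3 higher, 23 lower, a share of 11.5% higher). Newly called members were Tmsb4x (0.59 with both the pseudocount of 0.1 and the filter at 5 FPKM, 0.34 with the common sum, 0.44 with the protein-coding sum, 0.60 with the correction), Actg1 (-0.51, -0.40 and -0.42 with the last 3), Tmsb10 (-0.52, -0.42 and -0.64) and, with the common sum, Arpc2 (-0.46) and Cfl1 (-0.36). Over all genes, higher calls made up 58.9% as reported, 26.1% with the common sum and 38.2% with the protein-coding sum. The log2 ratio change of Tmsb4x to Tmsb10 was 1.24 and of Cfl1 to Dstn 0.62 after the correction, against 0.86 and 0.83, and that of Was to Wasl was 0.0062 with a pseudocount of 1, against -0.10. As a share of protein-coding nuclear FPKM the members took 2.17% and 2.0% in Th0 and 2.09% and 2.19% in Th0+Dopa.

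Other named genes that turned were not called: Actr2 (0.14 without Th0+Dopa 2, -0.42 without Th0+Dopa 3, 0.088 corrected), Actr3 (0.034 without Th0+Dopa 2, 0.0086 without Th0 3, lowest -0.13 without Th0+Dopa 3, 0.019 corrected), Arpc4 (-0.19 common sum, -0.089 protein-coding sum, -0.015 without Th0 3, highest 0.089 without Th0 2, -0.0015 corrected), Arpc5 (-0.098 common sum), Arpc5l (-0.15 common sum, -0.046 protein-coding sum), Cdc42 (0.13 corrected), Elk4 (0.43 without Th0+Dopa 2, -0.74 without Th0+Dopa 3), Hcls1 (-0.12 common sum, -0.024 protein-coding sum) and Myl6 (0.097 without Th0+Dopa 3, -0.24 without Th0+Dopa 2). The cause was not tested for any of these changes. The members' depth was ample by the fragment estimate; the 2 libraries per group limit the tests.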
